A study of Mus musculus with 24 samples.

Results

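Gene expression in bone marrow was compared between Cyp1b1-null and wild-type (WT) mice that had both received DMBA (7,12-dimethylbenz(a)anthracene). The comparison took every array of these groups, which were 2 arrays labelled Cyp1b1-null DMBA and 3 arrays labelled WT DMBA out of 24 arrays in the study, and no array of oil-treated mice. The Cyp1b1-null mice lacked a cytochrome P450 gene, with no strain given in their own labels, and the WT mice were C57BL/6j. Both groups were females aged 6 weeks that received 50 mg/kg of DMBA by intraperitoneal injection and gave marrow at 12 h. Each sample was a pool of 9 per the labels, which do not say what was pooled. Nothing in the labels says that replicates came from separate animals, so a p-value measures only the spread between these arrays, which may be technical. The remaining arrays held marrow of WT, Cyp1b1-null, Cyp1a1-null and double-null mice after olive oil, benzo(a)pyrene, dioxin or DMBA.

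DMBA is a polycyclic aromatic hydrocarbon that binds the aryl hydrocarbon receptor (AhR), a transcription factor which induces the cytochromes CYP1A1 and CYP1B1. CYP1B1 oxidises DMBA in marrow, and with microsomal epoxide hydrolase it forms a diol epoxide that binds to DNA. DNA damage stabilises p53, which induces genes of growth arrest, repair and cell death, and in the marrow of mice developing B cells are among the cells that DMBA depletes. The comparison therefore asks what DMBA leaves different in marrow when one of the enzymes that oxidise it is missing.

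On each array the sample carried the green dye Cy3, and a common pool of marrow from oil-treated WT mice carried the red dye Cy5, with no dye swap. The value given for a gene on an array is the log ratio, log2(Cy3/Cy5), of its brightest probe, so 0 means the level of the pool. A difference is the mean log ratio of the arrays labelled Cyp1b1-null (called null-labelled here) minus that of the WT arrays, with its standard error from limma fitted across all 21933 genes tested. A gene was called, and is said to have risen or fallen, where limma's p-value adjusted over all genes tested was under 0.05. With 2 arrays against 3, precision is limited by how few arrays there are. A constant of 50 intensity units was added to each signal, which draws log ratios of dim probes closer to 0.

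The 15 markers chosen for marrow, of neutrophil precursors, erythroid cells, B cells, megakaryocytes and monocytes, were well above background on all 5 arrays. Cy3 was well above background for 67.6% and 81.9% of probes on the null-labelled arrays and for 67.4% to 78.4% on the WT arrays. Across genes, which are not independent, log ratios correlated at r = 0.796 between the null-labelled arrays and at 0.86 between WT arrays 1 and 2, but at 0.418 and 0.331 between WT array 3 and those 2 arrays. Between the groups r was 0.175 to 0.258. Both null-labelled arrays lay on 1 slide that held no WT array, WT arrays 1 and 2 lay on another and WT array 3 on 1 more, so slide and genotype cannot be told apart. The number of calls rested on single arrays: 5 genes were called without null-labelled array 1 and 3 without null-labelled array 2, where the remaining null-labelled array is assumed to vary as the WT arrays do, against 3049 with all 5 arrays. In both cases no member of the 37 gene lists used here was called. Leaving out WT array 1, 2 or 3 gave 369, 898 or 6027 called genes. Feature Extraction's own processed signals also gave no call, with 6000 genes at an unadjusted p under 0.05, although 3048 of the 3049 called genes had the same sign in them.

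Of the 21933 genes, 1835 rose (8.37%) and 1214 fell (5.54%) in null-labelled marrow relative to WT marrow after DMBA, 3049 in all (13.9%). The median difference over all genes was 0.01. The groups did not overlap for 10786 genes (49.2%), and for each of the 3049 called. Scaling Cy3 alone moved the median of all genes to 0.29 and left 2239 of the 3049 called genes with their sign. Of 153 called genes given by name, 32 changed sign under at least 1 alternative processing, mostly Cy3 alone.

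Cyp1b1 itself, the deleted gene (chr17:79706940-79715061, GRCm38.p6), had log ratios of 0.77 and 0.65 on the null-labelled arrays and of 0.37, 0.46 and 0.48 on the WT arrays. The null-labelled arrays were thus the higher ones, with no overlap, by 0.27 ± 0.10, which was not called (limma, adjusted p = 0.11). The sign turned, at -0.34, when the background model was fitted on all spots. A second, dimmer probe of the gene, above background on 2 of the 5 arrays, read 0.25 and -0.19 in null-labelled marrow and -0.07, 0.00 and -0.17 in WT marrow. The probes therefore did not show the loss that the label states, and neither did the null-labelled oil arrays, at 0.67 and 1.08, against -0.06, -0.04 and 0.57 in WT oil arrays. Where the probes lie relative to the deleted part is not stated in the sources, so this check does not settle the label.

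Cyp1a1, the other cytochrome that AhR ligands induce and that oxidises DMBA, was lower in null-labelled marrow. Its log ratios were 1.26 and 0.55 on the null-labelled arrays and 1.93, 1.76 and 1.91 on the WT arrays. All 5 lay above the oil pool, the WT arrays close together and above both null-labelled arrays, which lay well apart. The difference was -0.97 ± 0.20 (adjusted p = 0.029), and its size depended on the treatment of dim signal: processed signals gave log ratios of 4.79 and 1.84 against 6.64, 6.40 and 6.61, a difference of -3.24 (adjusted p = 0.099). In the authors' deposited table the combination of columns that matches this comparison was -3.23. Over the alternatives Cyp1a1 stayed lower in null-labelled marrow, and leaving out null-labelled array 1 or 2 gave -1.32 or -0.61 with adjusted p = 0.070 or 0.069, in a range of 0.0023 to 1.0 over all settings.

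Among 14 tested genes of the AhR battery, 2 rose and 2 fell, where 8.37% of all genes rose and 5.54% fell. The list median was 0.06 against 0.01 for all genes, and it took the other sign with processed signals, at -0.11. Spint1, an inhibitor of serine proteases, read 1.97 and 1.46 in null-labelled marrow and 2.79, 2.67 and 2.33 in WT marrow, a fall of the same order as that of Cyp1a1 (-0.88 ± 0.20, adjusted p = 0.034). Like Cyp1a1 it was high on every DMBA array and highest on the WT ones. Ugt1a6b, a glucuronosyltransferase of the battery, went the other way, with 1.43 and 1.28 in null-labelled marrow and 0.52, 0.43 and 0.92 in WT marrow (0.73 ± 0.16, adjusted p = 0.033), while another probe of it read -0.28. Lpcat2, a lysophospholipid acyltransferase, rose by 0.35 ± 0.09 (adjusted p = 0.047).

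Further target genes of AhR, Ahrr, Tiparp and Nqo1, were chosen after their values were seen and were not called. Ahrr, the AhR repressor, read 1.48 and 0.59 in null-labelled marrow and 1.84, 1.68 and 1.41 in WT marrow, so the groups overlapped. Tiparp, a mono-ADP-ribosyltransferase that restrains AhR, had 1.15 on the only null-labelled array with a value and 0.65, 0.61 and 0.85 on the WT arrays. Nqo1, a quinone reductase, had 0.37 and 0.60 against 0.06, 0.01 and 0.50. Of 12 partners of AhR and of the CYP1 enzymes, 2 rose and 1 fell: Hsp90aa1, which holds AhR in the cytosol, by 0.95 ± 0.13 (adjusted p = 0.012), and Ptges3, the co-chaperone p23 of that complex, by 0.39 ± 0.09 (adjusted p = 0.041), with another probe at -0.14. Ephx1, the microsomal epoxide hydrolase that acts with CYP1B1 on DMBA, fell: it read -0.51 and -0.18 in null-labelled marrow and 0.26, 0.17 and 0.43 in WT marrow (-0.63 ± 0.13, adjusted p = 0.030). Over all genes 8.37% rose and 5.54% fell.

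**Figure D1:**
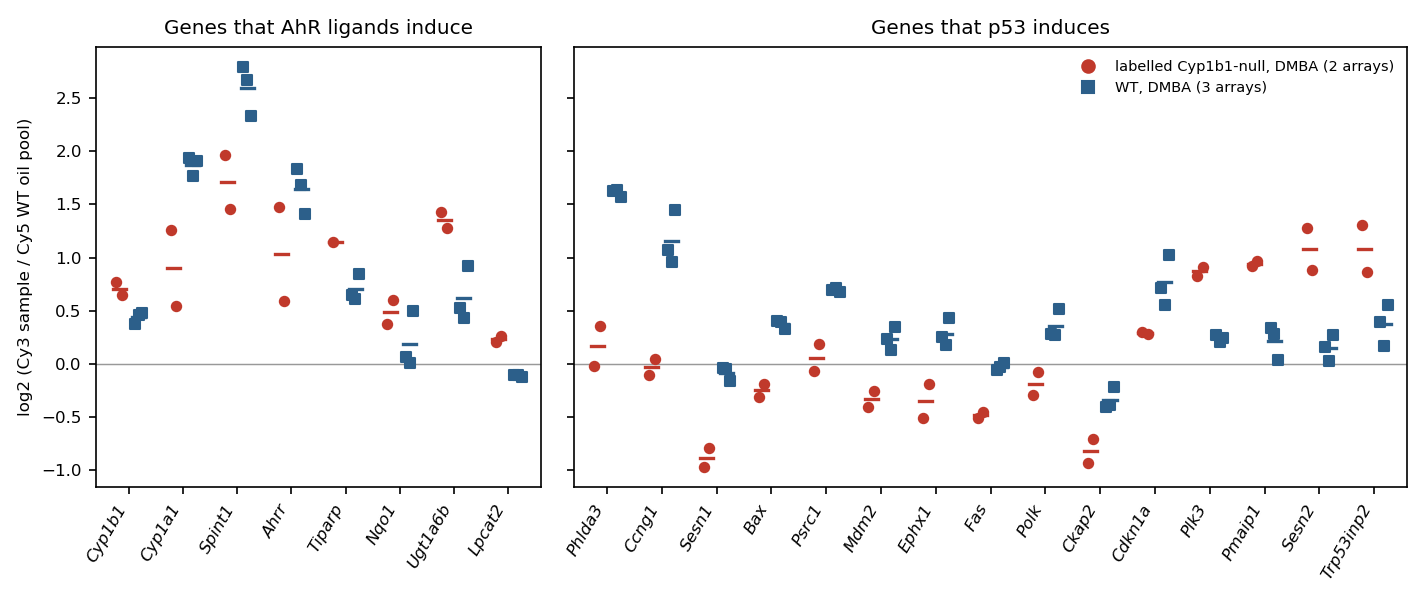
Log ratio, log2(Cy3 sample / Cy5 WT oil pool), of selected genes of the AhR battery (left) and selected p53 targets (right) on each array, with red circles for the 2 null-labelled DMBA arrays, blue squares for the 3 WT DMBA arrays and bars for group means. Of 35 tested p53 targets, the right panel shows the 10 called falls, Cdkn1a (not called) and the called rises other than Tnfrsf10b. Cyp1a1, Spint1, Phlda3 and Ccng1 lie lower on both null-labelled arrays than on every WT array, while Sesn2, Pmaip1, Plk3 and Trp53inp2 lie higher.

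Among targets of p53 there were more falls than rises in null-labelled marrow. Of 35 tested targets 10 fell and 5 rose in null-labelled marrow relative to WT marrow, against 5.54% lower and 8.37% higher of all genes, with a median of -0.27 against 0.01 for all genes. Both null-labelled arrays lay below every WT array for 18 of them (51.4%), against 22.9% of all genes. The list had a similar median without DMBA, at -0.26 in the comparison of null-labelled with WT marrow after oil without WT oil array 1, where 7 targets were called higher and 7 lower and 36.3% of all genes were called. Phlda3, a target of p53 that restrains Akt (chr1:135766085-135769134), read -0.02 and 0.35 in null-labelled marrow and 1.62, 1.64 and 1.57 in WT marrow. The null-labelled arrays thus stood near the level of the oil pool, and near the null-labelled oil arrays at 0.23 and 0.43, while the WT arrays stood well above it. The difference was -1.44 ± 0.13 (adjusted p = 0.0077). Ccng1, cyclin G1, an early p53 target that feeds back on Mdm2 (chr11:40748552-40755309), had -0.11 and 0.04 against 1.07, 0.96 and 1.45, a difference of -1.19 ± 0.16 (adjusted p = 0.011), with a second probe at -0.60. Its null-labelled DMBA arrays also stood at the pool's level, but above the null-labelled oil arrays at -0.75 and -0.68.

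Other targets of growth arrest and cell death fell by less. Sesn1, a sestrin that restrains mTORC1, read -0.97 and -0.79 in null-labelled marrow and -0.04, -0.04 and -0.16 in WT marrow (-0.80 ± 0.10, adjusted p = 0.011). Bax, a pore-forming member of the BCL2 family that starts apoptosis, had -0.31 and -0.18 against 0.41, 0.40 and 0.33 (-0.63 ± 0.09, adjusted p = 0.013). For each the 2 groups stood on opposite sides of a gap wider than the spread within either. Psrc1 (-0.63), Mdm2 (-0.57), the ubiquitin ligase of p53, and Fas (-0.46), a death receptor with another probe at 0.40, also fell, as did Ephx1 above, the translesion polymerase gene Polk (-0.54) and the spindle gene Ckap2 (-0.48). Psrc1, Mdm2, Fas, Polk and Ckap2 were chosen after their values were seen, as was Cdkn1a, the cell cycle inhibitor p21. Cdkn1a read 0.30 and 0.28 in null-labelled marrow and 0.71, 0.56 and 1.03 in WT marrow, below every WT array but not called (-0.48 ± 0.15, adjusted p = 0.081).

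The other 5 called targets rose. Sesn2, a sestrin that ATF4 also induces, read 1.28 and 0.88 in null-labelled marrow and 0.16, 0.03 and 0.27 in WT marrow (0.93 ± 0.15, adjusted p = 0.015, with another probe at 0.15), and its null-labelled oil arrays stood as high, at 1.37 and 1.12. Pmaip1, the BH3-only protein Noxa, had 0.92 and 0.96 against 0.33, 0.28 and 0.03 (0.73 ± 0.12, adjusted p = 0.016). Plk3, a stress-responsive kinase, had 0.83 and 0.91 against 0.28, 0.21 and 0.25 (0.63 ± 0.09, adjusted p = 0.013). Trp53inp2, an autophagy factor, rose by 0.71 ± 0.17 and Tnfrsf10b, the receptor of TRAIL, by 0.47 ± 0.09, with other probes of Tnfrsf10b at -0.15 and 0.06. Without null-labelled array 1 or 2 no p53 target was called, with list medians of -0.24 and -0.35, and no target was called with processed signals, where the median was -0.41.

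Sequences of 250 bases before the transcription start are shown for Cyp1a1, Spint1, Ccng1 and Bax. These are called genes that fell and whose promoter holds a match to the element that AhR or p53 binds. Lpcat2, which rose, also holds the AhR core and Polk, which fell, the p53 element, and neither is shown. They are taken from RefSeq (GRCm38.p6) and run 5′ to 3′ on the strand of the gene, with the match in capitals. The AhR core was searched as GCGTG on both strands, and the p53 element as its consensus of paired half-sites by name, on both strands, with at most 1 mismatch and a spacer of at most 1 base. The AhR core occurs in 28.2% of 32851 promoters of this length and the p53 element in 46 of them (0.14%). Of the AhR battery 7 of 13 genes with a promoter held the core, and of the p53 targets 4 of 28 held the element (Bax, Ccng1, Cdkn1a and Polk). These counts are of genes with a match in any of their promoters, whereas the shares above are of promoters, so they are not directly comparable. Cyp1a1 lies at chr9:57697363-57697612 (plus strand), Spint1 at chr2:119237110-119237359 (plus), Ccng1 at chr11:40755287-40755536 (minus) and Bax at chr7:45466899-45467148 (minus).
Cyp1a1: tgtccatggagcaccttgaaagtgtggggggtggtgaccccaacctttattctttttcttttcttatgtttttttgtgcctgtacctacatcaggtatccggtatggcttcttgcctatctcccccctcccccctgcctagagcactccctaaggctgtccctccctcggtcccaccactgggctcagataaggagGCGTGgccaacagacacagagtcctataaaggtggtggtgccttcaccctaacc
Spint1: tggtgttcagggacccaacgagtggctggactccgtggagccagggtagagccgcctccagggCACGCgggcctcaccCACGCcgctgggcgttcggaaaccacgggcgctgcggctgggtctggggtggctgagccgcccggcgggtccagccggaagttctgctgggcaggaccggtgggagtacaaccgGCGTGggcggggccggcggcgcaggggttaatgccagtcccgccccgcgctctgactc
Ccng1: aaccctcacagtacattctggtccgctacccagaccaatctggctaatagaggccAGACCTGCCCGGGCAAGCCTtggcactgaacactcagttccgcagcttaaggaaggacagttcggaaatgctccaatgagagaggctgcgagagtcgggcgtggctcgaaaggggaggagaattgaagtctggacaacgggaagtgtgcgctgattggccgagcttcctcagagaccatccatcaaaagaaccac
Bax: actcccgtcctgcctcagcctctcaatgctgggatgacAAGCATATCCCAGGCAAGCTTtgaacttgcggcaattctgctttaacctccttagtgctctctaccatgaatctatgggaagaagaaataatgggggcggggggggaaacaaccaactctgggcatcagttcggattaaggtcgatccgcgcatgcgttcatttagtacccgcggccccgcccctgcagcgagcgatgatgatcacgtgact
The match of Cyp1a1 starts 54 bases before the transcription start that the printed sequence precedes, and Spint1 holds 3 matches. The elements of Ccng1 and Bax start 195 and 212 bases before the start. A match describes these letters and does not show binding.

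Genes of stress responses stood higher in null-labelled marrow. Of 28 tested inflammatory cytokines and targets of NF-kB, 14 rose and 1 fell, against 8.37% and 5.54% of all genes, with a list median of 0.41. Il6, the cytokine interleukin 6, read 1.56 and 2.20 in null-labelled marrow and 0.20, 0.41 and 0.36 in WT marrow (1.56 ± 0.19, adjusted p = 0.011). Ccl3, a chemokine of myeloid cells, had 1.85 and 2.04 against 0.30, 0.31 and 0.60 (1.54 ± 0.13, adjusted p = 0.0076), and Tnf had 1.25 and 1.55 against 0.15, 0.17 and 0.35 (1.18 ± 0.13, adjusted p = 0.0099). All 3 cytokines were thus far above the pool in null-labelled marrow and close to it in WT marrow. They were also above the pool in null-labelled marrow after oil, at 1.63 and 1.37 for Il6, 1.69 and 1.18 for Ccl3 and 1.06 and 0.59 for Tnf. Nfkbie, an inhibitor of NF-kB, was the member that fell, with -1.02 and -0.70 against 0.11, 0.13 and 0.10 (-0.97 ± 0.12, adjusted p = 0.010). Ccl5, a chemokine of T and NK cells that belongs to this list too, rose by 0.76 ± 0.11 (adjusted p = 0.013).

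Immediate early genes, which are transcribed within minutes of a stimulus, rose in 9 of 27 cases, and none fell (median 0.38). The share of all genes that rose was 8.37%. Dusp1, a phosphatase that switches off MAP kinases, read 1.96 and 1.84 in null-labelled marrow and 0.08, 0.11 and 0.61 in WT marrow (1.63 ± 0.18, adjusted p = 0.0099). Nr4a1, an orphan nuclear receptor, had 1.17 and 1.20 against 0.15, 0.18 and 0.28 (0.99 ± 0.09, adjusted p = 0.0082). Dusp6, a phosphatase of ERK, rose by 1.00 ± 0.09 and Jun, a subunit of AP-1, by 0.80 ± 0.09. For these genes both null-labelled arrays stood close to each other and clear of the WT arrays.

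The integrated stress response, in which ATF4 raises genes of amino acid supply, had 7 members up and none down of 23 (median 0.26). Over all genes 8.37% rose and 5.54% fell. Cebpb, a transcription factor induced in stress and in emergency granulopoiesis, read 1.36 and 1.24 in null-labelled marrow and 0.13, 0.03 and 0.06 in WT marrow (1.23 ± 0.09, adjusted p = 0.0076, with another probe at 0.18). Vldlr, a lipoprotein receptor under ATF4, had 1.23 and 0.80 against -0.14, -0.04 and -0.23 (1.15 ± 0.15, adjusted p = 0.011, with another probe at 0.185), and Psph, an enzyme of serine synthesis, rose by 0.79 ± 0.09 (adjusted p = 0.0099). Of 16 heat shock chaperones 4 rose and 1 fell, with a median of 0.22, which was -0.023 without null-labelled array 1. Hspa1a, the inducible chaperone HSP70, read 2.47 and 1.47 in null-labelled marrow and 0.18, 0.24 and -0.47 in WT marrow (1.98 ± 0.33, adjusted p = 0.017). Its close copy Hspa1b rose by 1.23 ± 0.28 (adjusted p = 0.037), and signals of the 2 genes may not be separate. Dnajb1 rose by 0.65 ± 0.15, and Dnajb4, another HSP40 co-chaperone, fell by 0.52 on the log2 scale (adjusted p = 0.049), with other probes at -0.65 and 0.03.

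Targets of NRF2, the sensor of electrophiles, were called at about the share of all genes (13.9%), with 3 up and 1 down of 24. They included Gsr, glutathione reductase (0.94 ± 0.22), Cbr3, a carbonyl reductase (0.70 ± 0.13), and Osgin1, a growth inhibitor induced by oxidative stress (0.54 ± 0.12), and Ftl1, ferritin light chain, which fell (-0.43 ± 0.09). Of 32 interferon-stimulated genes 2 rose, Oasl2 (1.03 ± 0.23) and Trim30a (0.73 ± 0.12, with another probe at -0.42), and 1 fell, Bst2 or tetherin (-0.75 ± 0.15). Glucocorticoid-responsive genes had 2 up and 1 down of 15, among them Tat, tyrosine aminotransferase (0.73 ± 0.13), and Ddit4, an inhibitor of mTORC1 (-0.49 ± 0.11). In the circadian clock Nfil3, a repressor of D-box genes, rose by 0.55 ± 0.13 and Arntl, the core activator BMAL1, fell by 1.13 on the log2 scale, out of 17 genes.

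Members of lists of DNA repair, cell death and the cell cycle were called in both directions, where 8.37% of all genes were called higher and 5.54% lower. Of 37 genes of repair and checkpoints 5 rose and 4 fell (median -0.07). Polh, the polymerase that passes bulky lesions, read 0.48 and 0.52 in null-labelled marrow and -0.42, -0.30 and -0.64 in WT marrow (0.96 ± 0.12, adjusted p = 0.011, with other probes at 0.03 and 0.10). Xrcc6, the Ku70 subunit of end joining, had -0.86 and -0.49 against 0.33, 0.35 and 0.25 (-0.99 ± 0.13, adjusted p = 0.011). Ogg1, the glycosylase of oxidised guanine, rose by 0.71 ± 0.13, and Rad54l, a factor of homologous recombination, fell by 0.49 on the log2 scale. Of 28 genes of the BCL2 family and caspases 4 rose and 5 fell (median -0.12), among them Casp9 (0.72 ± 0.13), Casp2 (0.54 ± 0.09) and the BH3-only gene Bmf (-1.08 ± 0.18, with other probes at -0.28 and 0.80).

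Of 38 S-phase genes 3 rose and 4 fell (median -0.12). Cdc45, a part of the replicative helicase, read -0.94 and -0.90 in null-labelled marrow and 0.02, 0.02 and -0.04 in WT marrow (-0.92 ± 0.09, adjusted p = 0.0085), whereas Mcm6, another part of it, had 0.64 and 0.42 against -0.41, -0.27 and -0.24 (0.84 ± 0.11, adjusted p = 0.011). Partners of the same helicase thus lay on opposite sides of the pool. The licensing factor Cdt1 rose (1.03 ± 0.20), and Gins4 (-0.69 ± 0.10) and the clamp loader Rfc3 (-0.64 ± 0.09) fell. Of 35 genes of G2 and M phase 3 rose and 3 fell (median -0.07), with falls of the kinetochore genes Ndc80 (-0.86 ± 0.12) and Nuf2 (-0.53 ± 0.10) and of the spindle gene Nusap1 (-0.65 ± 0.13), and a rise of the centromeric histone Cenpa (0.60 ± 0.09).

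Ribosomal protein genes had 13 falls and 1 rise among 68 (median -0.24), but this direction turned with the scaling, since the list median was 0.22 with Cy3 alone and 0.13 with median centring. Over all genes 8.37% rose and 5.54% fell. Rps15 read -1.08 and -0.89 in null-labelled marrow and -0.07, -0.15 and -0.15 in WT marrow (-0.86 ± 0.10, adjusted p = 0.0099). Rpl3 fell (-0.68 ± 0.11), and Rpl24 was the member that rose (0.40 ± 0.09). Rps6 fell by 0.76 on the log2 scale, with another probe at 0.09. Of 48 genes of the mitochondrial respiratory chain 5 rose and 3 fell (median -0.04).

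**Figure D2:**
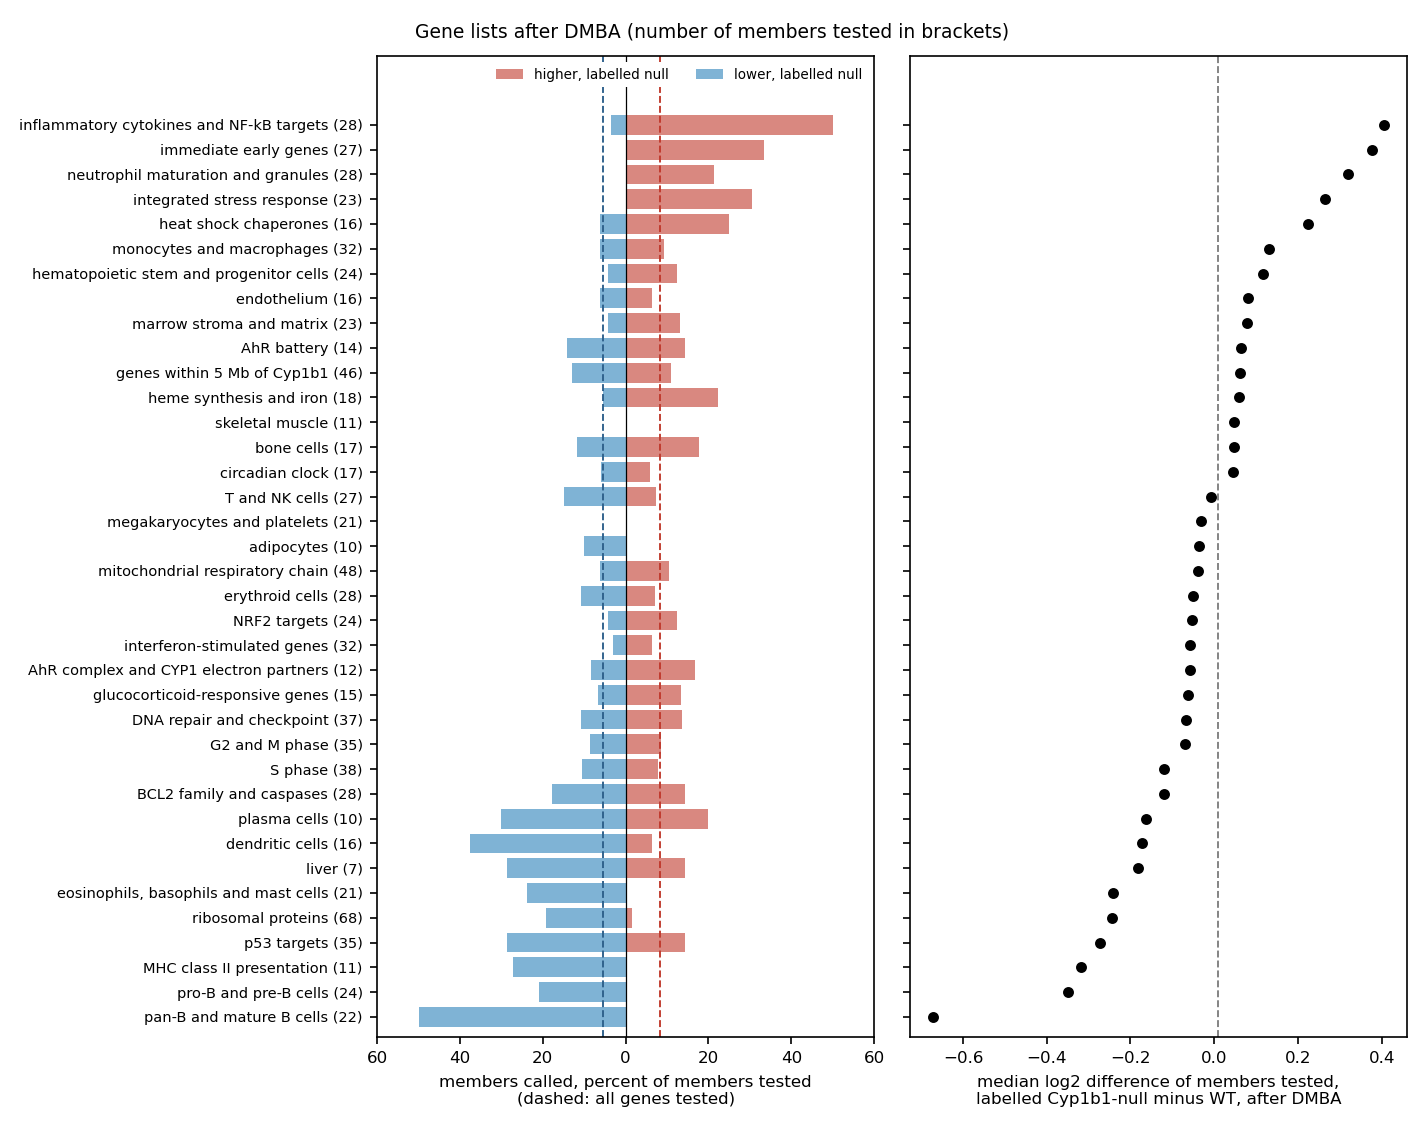
Left, percent of the tested members of each of 37 gene lists that were called higher (red, to the right) or lower (blue, to the left) in null-labelled than in WT marrow after DMBA, with dashed lines at 8.37% and 5.54% for all genes. Right, the median log2 difference of the same members, with a dashed line at the median of all genes; lists run from inflammatory cytokines (0.41) at the top to mature B cells (-0.67) at the bottom.

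Markers of B cells were lower in null-labelled marrow. Of 22 pan-B and mature B-cell genes 11 fell and none rose (median -0.67), and of 24 pro-B and pre-B genes 5 fell and none rose (median -0.35). The share of all genes that fell was 5.54%. In bulk marrow, fewer cells of a type and less RNA per cell cannot be told apart. Rag1, the recombinase that assembles antigen receptors (chr2:101638252-101649532), read -1.63 and -0.97 in null-labelled marrow and 0.18, 0.28 and 0.21 in WT marrow (-1.52 ± 0.19, adjusted p = 0.011), with other probes at -1.39 and 0.18. Cd79b, the signalling chain of the B-cell receptor, had -1.37 and -0.51 against 0.39, 0.31 and 0.66 (-1.39 ± 0.25, adjusted p = 0.020). Cd72, an inhibitory co-receptor of B cells, had -1.35 and -0.88 against 0.43, 0.44 and 0.18 (-1.47 ± 0.17, adjusted p = 0.0099). In each of these the null-labelled arrays were below the pool and the WT arrays above it, and null-labelled array 1 was the lower of its pair.

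Among the other B-cell genes called, Cxcr5, the chemokine receptor that leads B cells to follicles, fell by 1.28 on the log2 scale (adjusted p = 0.012). Btla, an inhibitory receptor, fell by 0.88 and Ralgps2, an exchange factor, by 0.87 on that scale. In the earlier stages Vpreb3, a partner of the pre-B-cell receptor, read -0.66 and -0.37 in null-labelled marrow and 0.26, 0.37 and 0.37 in WT marrow (-0.85 ± 0.12, adjusted p = 0.012). Rhoh, a GTPase of lymphocytes, fell by 0.80 and Cd93, which marks early B cells and also myeloid cells, by 0.72 on the log2 scale. Among defining markers looked up after their values were seen, Cd79a (-0.10) and the surrogate light chain Vpreb1 (-0.41) were not called. The summed Cy3 signal of the 24 pro-B and pre-B genes, scaled between arrays, was 48810 to 70420 in null-labelled marrow and 105400 to 112900 in WT marrow, and that of the 22 mature B-cell genes was 74830 to 108600 in null-labelled marrow and 154400 to 159200 in WT marrow.

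The B-cell difference was present after oil as well. In the comparison of null-labelled and WT marrow after oil without WT oil array 1, the list medians were -0.56 for mature B cells, with 14 members lower and 1 higher of 22, and -0.55 for pro-B and pre-B cells, with 12 lower and 2 higher of 24, where 36.3% of all genes were called. Rag1 stood at -1.53 and -1.55 in null-labelled marrow after oil, near its level after DMBA.

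**Figure D3:**
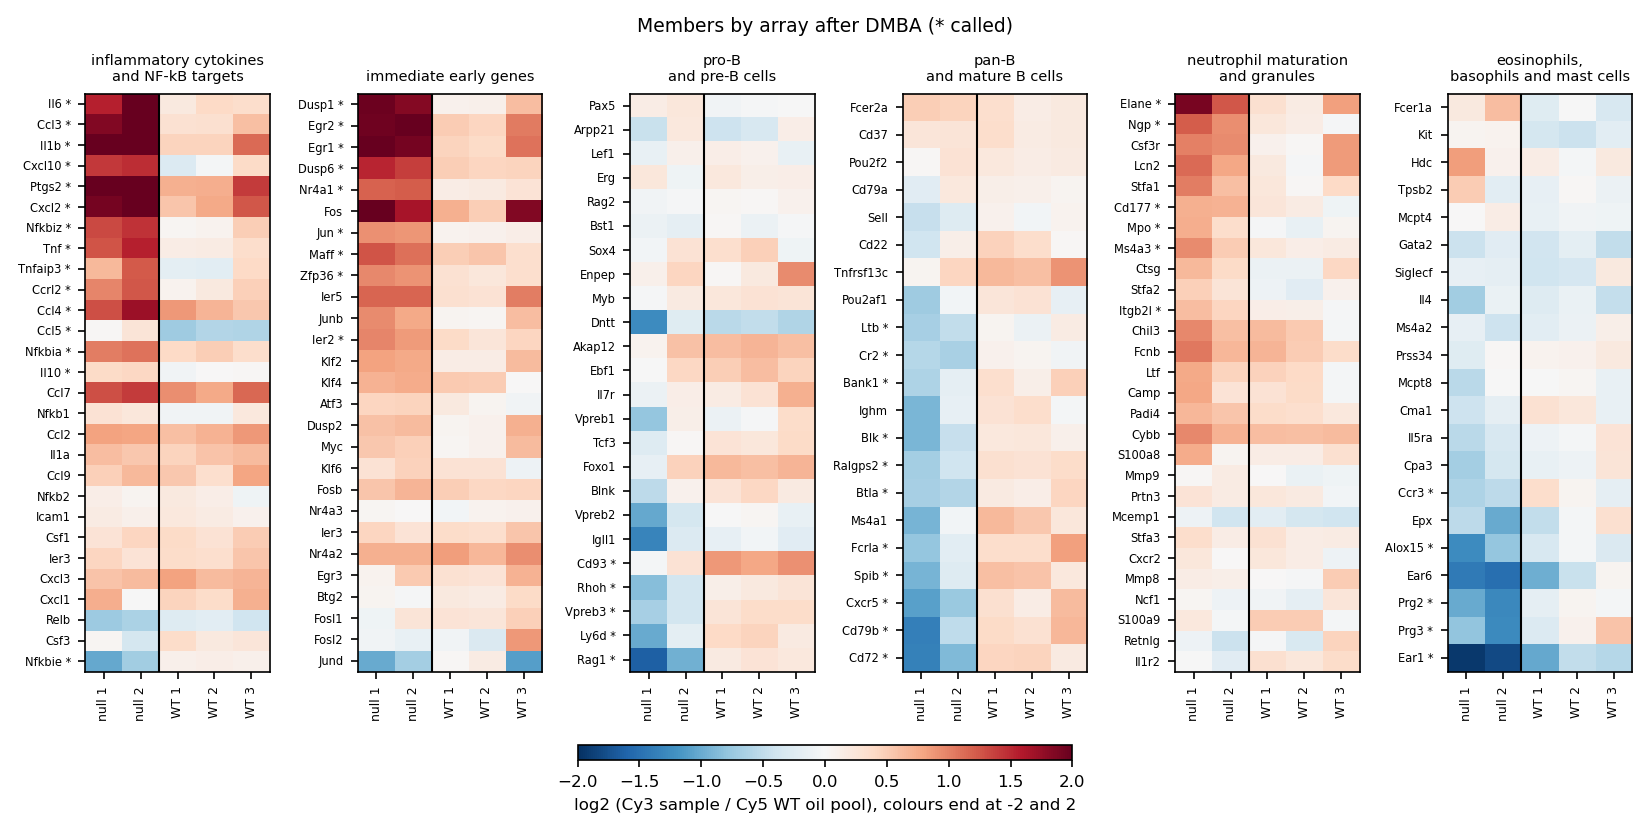
Log ratios of tested members of 6 gene lists on the 2 null-labelled (left of the line) and 3 WT (right of the line) DMBA arrays, from blue (-2 and below) through white (0) to red (2 and above), with an asterisk for called genes. Inflammatory and immediate early genes are red mainly on the null-labelled arrays, and the called mature B-cell genes are blue there and mostly pale red on the WT arrays.

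Genes of other lymphoid and antigen-presenting cells were called in both directions, where 8.37% of all genes rose and 5.54% fell. Among 11 genes of MHC class II presentation 3 fell and none rose (median -0.32): H2-Aa, which read -0.31 and -0.17 in null-labelled marrow and 0.64, 0.48 and 0.40 in WT marrow (-0.75 ± 0.11, adjusted p = 0.013), H2-Ab1 (-0.71 ± 0.12) and the peptide editor H2-DMa (-0.70 ± 0.10). Plasma-cell genes had 2 up and 3 down of 10. Jchain, which joins polymeric antibodies, read 2.07 and 2.23 in null-labelled marrow and 0.87, 0.86 and 0.45 in WT marrow (1.42 ± 0.15, adjusted p = 0.0099), and Tnfrsf17, the survival receptor BCMA, rose by 0.63 ± 0.13. Mzb1, a chaperone of antibody secretion, fell (-0.90 ± 0.14), as did Irf4 (-0.59 ± 0.13), a transcription factor of plasma and activated B cells. Of 27 T and NK genes 2 rose and 4 fell, with Tbx21, the transcription factor T-bet, at 0.47 ± 0.09, Cd2 at -1.16 ± 0.18 and the T-cell receptor subunit Cd3d at -0.64 ± 0.10. Dendritic-cell genes had 6 falls and 1 rise of 16 (median -0.17): Ccr7, a homing receptor (-0.96 ± 0.15), Irf8, a factor of monocytes and dendritic cells (-0.61 ± 0.15), and Zbtb46 (-0.51 ± 0.12, with other probes from -0.07 to 0.15) fell, and the chemokine receptor Xcr1 rose (1.31 ± 0.18).

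In the myeloid lineage, 6 of 28 neutrophil genes rose and none fell (median 0.32), although a fit of all 24 arrays with slide as a random block gave a list median of -0.42. Over all genes 8.37% rose and 5.54% fell. Elane, neutrophil elastase, read 1.91 and 1.24 in null-labelled marrow and 0.32, 0.16 and 0.82 in WT marrow (1.14 ± 0.26, adjusted p = 0.035). One of the 6 calls, Ngp, a granule protein of developing neutrophils, had a probe that was saturated on both null-labelled arrays and 1 WT array, so its log ratios of 1.22 and 0.93 in null-labelled marrow and 0.22, 0.14 and -0.02 in WT marrow do not measure the size of the difference. Cd177, a surface protein of neutrophils, rose by 0.60 ± 0.12 and Itgb2l, an integrin chain, by 0.45 ± 0.11. The summed Cy3 signal of the 28 genes was 627100 to 738500 in null-labelled marrow and 578500 to 633800 in WT marrow, so it overlapped. Monocyte and macrophage genes had 3 up and 2 down of 32, among them the Fc receptor Fcgr1 (0.61 ± 0.12), the mannose receptor Mrc1 (0.46 ± 0.11), the iron exporter Slc40a1 (0.46 ± 0.11) and the scavenger receptor Marco (-0.65 ± 0.10).

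Eosinophil genes were lower in null-labelled marrow, with 5 falls and no rise among 21 genes of eosinophils, basophils and mast cells (median -0.24). The share of all genes that fell was 5.54%. Ear1, an eosinophil ribonuclease, read -1.93 and -1.80 in null-labelled marrow and -1.03, -0.50 and -0.57 in WT marrow (-1.17 ± 0.17, adjusted p = 0.013), and other members of its family may share its probe's signal. Prg2, the major basic protein of eosinophil granules, had -1.0 and -1.28 against -0.17, 0.05 and -0.03 (-1.09 ± 0.13, adjusted p = 0.0099), with its probe saturated on 1 WT array. Both groups were near or below the pool, and the null-labelled arrays were the lower ones. The related Prg3 fell (-1.17 ± 0.26), as did Alox15, a lipoxygenase of eosinophils (-0.80 ± 0.17). After oil Prg2 stood at 0.09 and 0.10 and Ear1 at -0.56 and -0.39 in null-labelled marrow, above their level there after DMBA.

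Erythroid genes had 2 rises and 3 falls of 28, and the falls were Tspo2, which read -1.43 and -1.48 in null-labelled marrow and -0.24, -0.03 and 0.04 in WT marrow (-1.38 ± 0.11, adjusted p = 0.0076), Bpgm, which makes the ligand that lowers the oxygen affinity of haemoglobin (-1.06 ± 0.15), and carbonic anhydrase Car2 (-0.71 ± 0.10). The water channel Aqp1 (0.93 ± 0.13) and the blood group gene Rhd (1.00 ± 0.15) rose. Beside the counts of this paragraph, 8.37% of all genes rose and 5.54% fell. Heme synthesis and iron genes had 4 rises, with Cpox (0.59 ± 0.13) and the iron importer Slc11a2 (0.54 ± 0.12), and 1 fall of 18. Of 24 genes of stem and progenitor cells 3 rose and 1 fell: Fli1, a transcription factor of blood stem cells, read 1.63 and 1.52 in null-labelled marrow and 0.02, 0.04 and 0.42 in WT marrow (1.41 ± 0.15, adjusted p = 0.0098), Runx1 rose (1.01 ± 0.18, with another probe at -0.05), Cd34 rose (0.56 ± 0.11) and Lmo2 fell (-0.74 ± 0.10). None of 21 megakaryocyte genes was called by limma, with a median of -0.03. Their summed Cy3 signal was 19210 to 28920 in null-labelled and 34040 to 37210 in WT marrow, without overlap. Their median log ratios overlapped (0.61 and 0.19 against 0.39, 0.38 and 0.23). The sums were also lower without overlap for erythroid genes (320200 to 333700 against 359800 to 425700) and heme genes (266400 to 284700 against 299900 to 334500). The list medians of these were -0.05 and 0.06. For stem-cell genes the sums overlapped (26760 to 27430 against 23920 to 29380). Sums without overlap were not particular to cell types. They also occurred for G2 and M phase (194200 to 195300 in null-labelled and 199200 to 218200 in WT marrow) and for the circadian clock (7598 to 9045 against 9082 to 10110).

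Markers of bone and other tissue that can be carried over with marrow were also called, where 13.9% of all genes were called. Of 17 bone genes 3 rose and 2 fell: Col11a1, a cartilage collagen (1.30 ± 0.18), and Runx2, the factor of bone-forming cells (0.50 ± 0.10, with other probes from -0.14 to 0.02), rose, and Spp1, osteopontin, read -0.66 and -0.68 in null-labelled marrow and 0.66, 0.73 and 0.71 in WT marrow (-1.37 ± 0.09, adjusted p = 0.0051), while Ctsk, the protease of osteoclasts, fell (-0.68 ± 0.14). Of 23 stroma genes 3 rose and 1 fell, with Col3a1 at 1.27 ± 0.20 and its other probes at -0.19 and 0.16. Adipocytes had 1 fall of 10, Scd1, a desaturase (-0.98 ± 0.15), endothelium 1 rise and 1 fall of 16, and liver 1 rise and 2 falls of 7. Skeletal muscle had no call of 11 by limma. The summed Cy3 signal of bone genes, whose list median was 0.05, was 13270 to 13820 in null-labelled and 19020 to 20620 in WT marrow, without overlap. It did not overlap either for endothelium (8945 to 9086 in null-labelled and 8042 to 8674 in WT marrow) and skeletal muscle (1642 to 1839 in null-labelled and 1450 to 1573 in WT marrow), both higher in null-labelled marrow. The sums overlapped for stroma (9334 to 13910 in null-labelled and 8860 to 9829 in WT marrow), adipocytes (4394 to 6282 in null-labelled and 6040 to 6463 in WT marrow) and liver (34620 to 41970 in null-labelled and 30650 to 34970 in WT marrow). Well above background on all 5 arrays were 7 of the 11 muscle genes, 15 of the 23 stroma genes and 3 of the 7 liver genes. Their sums therefore include dim signals and the constant of 50 units added to each. Sums without overlap were not particular to these tissues, as given above for G2 and M phase and the circadian clock. The part of these cells in the results was not tested.

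The 14 largest rises that the naming rule gave spanned differences of 1.73 to 2.38 (adjusted p of 0.0044 to 0.020). Of these, 13 genes, all but H1f5, were also called higher in null-labelled than in WT marrow after oil, without WT oil array 1. In that oil comparison 4920 of all 21933 genes were called higher. For 7 of the 14 genes both null-labelled oil arrays stood above both null-labelled DMBA arrays. Polr2a, the largest subunit of RNA polymerase II, read 1.59 and 1.36 in null-labelled marrow and -0.81, -0.49 and -1.41 in WT marrow (2.38 ± 0.26, adjusted p = 0.0099), and 3.19 and 3.08 in null-labelled marrow after oil. The kinase gene Dyrk1b, with other probes at -0.01 and 0.45, the potassium channel gene Kcnh4, the adaptor gene Frs3, the antisense transcript Fam219aos, Ugt2b34 and the transcription factor gene Zscan10 shared this order. Pira2, an activating receptor of myeloid cells, had 2.11 and 2.29 against -0.22, -0.18 and 0.13 (2.29 ± 0.14, adjusted p = 0.0044), with 2.73 and 2.21 after oil. The remaining genes were the linker histone H1f5, Hspa1a, the nuclear RNA Malat1 (1.91 ± 0.33, with other probes from 0.08 to 1.37), the ubiquitin ligase Rnf149 (1.84 ± 0.21, with another probe at 0.09), the immunoglobulin A heavy chain Igha (1.77 ± 0.15, with other probes from -0.44 to 2.19) and the defensin Defb11.

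The 14 largest falls spanned differences of -1.74 to -1.39, and 9 of the 14 genes were also called lower after oil, without WT oil array 1. In that oil comparison 3045 of all 21933 genes were called lower. Ankrd37, an ankyrin-repeat gene induced by hypoxia, read -1.71 and -2.10 in null-labelled marrow and -0.41, 0.04 and -0.13 in WT marrow (-1.74 ± 0.17, adjusted p = 0.0089), and -1.50 and -1.43 in null-labelled marrow after oil. Gimap6 (-1.56 ± 0.21) and Gimap1 (-1.48 ± 0.17), GTPases of lymphocytes, Ifi209, an interferon-inducible gene (-1.63 ± 0.21), Pafah1b3, a subunit of a lipid hydrolase (-1.51 ± 0.21), and Trim56, a ubiquitin ligase of innate immunity (-1.40 ± 0.12), were likewise below the pool after oil. Col1a1, the chain of type I collagen, read -0.89 and -0.56 against 0.86, 1.77 and 0.23 in WT marrow (-1.68 ± 0.41, adjusted p = 0.043), the widest spread of WT arrays among these genes. Another probe of Col1a1 gave -0.38. Rag1, Cd72, Cd79b and Phlda3 completed the falls together with Patl2, Hapln1 and Rpgrip1. Like Phlda3 and Col1a1, these last 3 genes were not called after oil. Patl2, a factor of mRNA storage, read -1.65 and -1.90 in null-labelled marrow and -0.02, -0.12 and -0.09 in WT marrow (-1.70 ± 0.11, adjusted p = 0.0051), with 0.38 and 0.27 after oil. Hapln1, a link protein of the matrix, had -1.35 and -1.19 against 0.04, -0.02 and 0.58 (-1.47 ± 0.19), with 0.16 and -0.04 after oil, and Rpgrip1, a ciliary gene, had -1.90 and -1.77 against -0.32, -0.28 and -0.66 (-1.41 ± 0.14), with -0.30 and -0.38 after oil. With Cy3 alone these 3 genes took the other sign, at 1.09 for Patl2, 0.64 for Hapln1 and 0.27 for Rpgrip1.

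**Figure D4:**
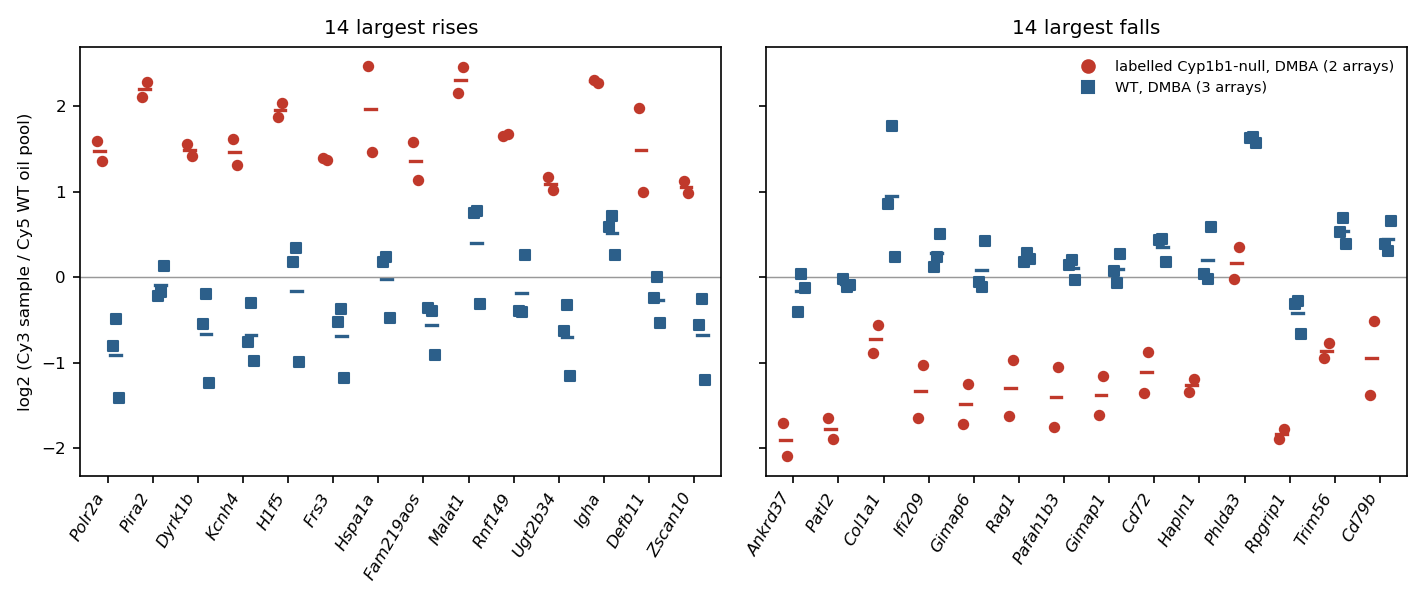
Log ratio on each DMBA array of the 14 genes with the largest rises (left) and falls (right) in null-labelled (red circles, 2 arrays) relative to WT (blue squares, 3 arrays) marrow, with bars for group means. No gene overlaps between the groups, and for Col1a1 the 3 WT arrays spread from 0.23 to 1.77.

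Well above background on every array of one group and on none of the other were 14 called genes, and the naming rule gave 6 of them. The level in the dim group is then not well measured, and the log ratios are only described. Impg1 read 0.88 and 0.86 in null-labelled marrow and -0.04, 0.10 and -0.07 in WT marrow, and Bmp5, with another probe at -0.20, Fndc9, Slitrk2 and the fibrinogen chain Fga were likewise detected on the null-labelled arrays alone. Trmt61b, a mitochondrial tRNA methyltransferase (chr17:71557027-71598761), was detected on the WT arrays alone, with log ratios of -1.08 and -0.81 in null-labelled marrow and -0.28, -0.35 and 0.04 in WT marrow, and its difference took the other sign, at 0.061, with normexp fitted on all spots. It lies on the chromosome of Cyp1b1, outside the window used next. Within 5 Mb of Cyp1b1 46 genes were tested, of which 5 rose and 6 fell (median 0.06), against 8.37% and 5.54% of all genes. Ndufaf7, an assembly factor of respiratory complex I, read -0.57 and -0.49 in null-labelled marrow and 0.21, 0.15 and 0.16 in WT marrow (-0.71 ± 0.09, adjusted p = 0.011), Cox7a2l fell (-0.70 ± 0.12) and Fam98a fell (-0.50 ± 0.10).

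The oil arrays were then used to ask whether the genotype difference after DMBA differed from that after oil, which takes null-labelled oil (2 arrays) and WT oil (3 arrays) into the fit. With all 10 arrays limma called no gene, with 1941 genes at an unadjusted p under 0.05. WT oil array 1 stood apart, with a standard deviation of log ratios of 1.299 against 0.23 and 0.404 in the other WT oil arrays, and without it 1963 genes were called (8.95%), 372 with a more positive and 1591 with a more negative difference after DMBA than after oil. After oil without that array, 4920 of the 21933 genes tested were called higher and 3045 lower, 36.3% in all. Of the 1835 genes that rose after DMBA, 1355 (73.8%) were also called higher after oil, which is 27.5% of the genes higher after oil. Of the 1214 that fell, 544 (44.8%) were also called lower after oil, which is 17.9% of those, and 189 were called higher there. The comparisons after DMBA and after oil share no Cy3 sample but share the Cy5 pool, and WT DMBA arrays 1 and 2 lay on the slide of WT oil array 2. The null-labelled oil arrays lay on 1 slide and the null-labelled DMBA arrays on another, so treatment and slide cannot be told apart within the null-labelled marrow.

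Named genes for which the 9-array test called the difference showed different orders of the arrays. Phlda3 (-1.35, adjusted p = 0.016), Patl2 (-2.39, 0.0091), Hapln1 (-1.74, 0.011), Rpgrip1 (-1.22, 0.020), Prg2 (-1.43, 0.010) and Ear1 (-1.51, 0.013) were lower in null-labelled marrow after DMBA and were not called after oil. Cdca2, a mitotic phosphatase regulator, read -0.46 and -0.82 in null-labelled marrow and 0.41, 0.44 and 0.21 in WT marrow after DMBA, against 1.64 and 1.53 in null-labelled marrow after oil (-2.66, 0.0089), with other probes at -0.36 and 0.16 in the DMBA comparison. Marco (-1.56, 0.014) was likewise called lower after DMBA and higher after oil. Kcnh4 (-1.81, 0.031), Frs3 (-1.54, 0.035) and Ugt2b34 (-2.05, 0.017) were instead higher in null-labelled marrow in both settings, and less so after DMBA. Of 68 ribosomal protein genes 31 had a more negative and 1 a more positive difference after DMBA than after oil, with a list median of -0.84. The p53 list had 3 of 35 more negative, and the B-cell lists had 1 of 22 and none of 24 called by limma. Beside these list counts, 1591 of all 21933 genes had a more negative and 372 a more positive difference (8.95% in all). For Cyp1a1 (-0.80, 0.16), Spint1 (0.06, 0.94) and Ccng1 (-0.14, 0.76) this difference was not called.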

How the data were processed

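Total RNA of bone marrow was hybridised to 2-colour Agilent arrays, with the sample in Cy3 and a common pool from oil-treated WT mice in Cy5. Per the file headers, the deposited intensity values are mean spot signals, local backgrounds and processed signals made by the authors with Feature Extraction 9.1.3.1, with background method code 5 on the null-labelled and 7 on the WT DMBA arrays. The same files hold a log10 ratio of Cy5 over Cy3 that the authors deposited, which was used only to check the direction. The authors' deposited table of group comparisons holds log2 differences, and the submitters' processing notes name limma without a version or a role.

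Mean signals were background-corrected by normexp with an offset of 50 and loess-normalized within arrays (limma 3.58.1 and statmod 1.5.0 in R 4.3.3). On both null-labelled DMBA arrays a few spots lay far under their background and moved the normexp fit. Its background mean in Cy3 was -135.9 and -160.3 with all spots, against -4.2 and 1.6 without them. Spots with a signal minus background under -100 units were therefore set to missing and left out of that fit. This step was chosen after seeing the data, and the fit on all spots called 837 genes in place of 3049. Control spots were left out, spots of a probe were averaged, and the brightest probe stood for a gene. Probes were named by accession in RefSeq's gene table or by the symbol in the file. Genes well above background in Cy3 on at least 2 arrays were tested with lmFit and eBayes over the 5 arrays (21933 of 27975 genes), with Benjamini-Hochberg adjustment. The scripts were tested on simulated data.

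The members and gene lists were chosen with earlier results of these data known. Named were Cyp1b1 and Cyp1a1, the 14 largest called differences in each direction among genes with a symbol and signal on all arrays, up to 5 genes in each direction that were well above background in one group alone, in each of 37 lists the 4 members with the smallest p and any called member that moved the other way (at most 2 where fewer than 2 were called), and the 6 genes whose genotype difference depended most on treatment. Not every gene this rule allows is printed, and some members are not reported here, and genes chosen after their values were seen are marked. Replicate numbers only name samples, since same-numbered arrays did not deviate together (r of 0.119 and -0.073). Alternatives were other background, normalization and filter settings, other probe summaries, slide as a block, fits of all 24 arrays and each array left out.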

Additional observations from a re-analysis of the deposited data

How the results depend on the processing

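Against 3049 called genes, between 2243 and 3691 were called without background subtraction, with Aquantile scaling, with no or a stricter filter, with the mean of probes or every probe, with slide as a block over the 5 arrays, and with a trended robust prior. The count was 0 with processed signals, 14561 with Cy3 alone (10320 higher, 4241 lower), 1124 with median centring (935 higher, 189 lower), 837 with normexp fitted on all spots (an alternative chosen after seeing the data), 44 in a fit of all 24 arrays, 802 in that fit without WT oil array 1, and with slide as a block 1 over all 24 arrays and 21 without WT oil array 1. Leaving out 1 array gave 3 to 6027, and the replicate block 6241; the labels do not pair the samples. The count for the difference between DMBA and oil, 0, stayed 0 with processed signals, the slide block and the replicate block, was 1963 without WT oil array 1 (0 there with processed signals), and 0 to 2 without 1 other array. The cause of these changes was not tested. Over 160 named genes and all alternatives, 3353 values were computed, of which 1873 kept direction and side of the threshold, 1427 lost the call, 11 gained it and 42 changed sign. With Cy3 alone the sign turned for Cpox (-0.77), Rpl24 (-0.61), Tiparp (-0.50), Runx2 (-0.38), Trim30a (-0.34), Elane (-0.30), Mrc1 (-0.27), Nqo1 (-0.23), Ugt1a6b (-0.20), Ogg1 (-0.20), Plk3 (-0.17), Casp9 (-0.17), Cd34 (-0.12), Nfil3 (-0.11), Rhd (-0.10), Lpcat2 (-0.094), Slc11a2 (-0.059), Psph (-0.049), Ptges3 (-0.026), Casp2 (-0.012), Bst2 (0.013), Ahrr (0.093), Rps6 (0.26), Lmo2 (0.27), Rpgrip1 (0.27), Cdca2 (0.33), Ctsk (0.49), Hapln1 (0.64) and Patl2 (1.09). With slide as a block over 24 arrays it turned for Itgb2l (-0.23), Rhd (-0.17), Lpcat2 (-0.12), Cd177 (-0.051), Casp2 (-0.045) and Cenpa (-0.0095), with normexp on all spots for Cyp1b1 (-0.34), Mrc1 (-0.18), Cbr3 (-0.051), Zbtb46 (0.0071) and Trmt61b (0.061), and when 1 array was left out for Vpreb1 (-0.86 to 0.044) and Cd79a (-0.32 to 0.12), neither of them called. The medians of the p53, inflammatory, immediate early, stress response, B-cell, MHC class II, dendritic and eosinophil lists kept their sign under every alternative run. Of 61 named genes with further probes above background, 17 had one of opposite sign. Further probes are printed mainly for those, and in other genes a further probe of the same sign showed a far smaller difference. Examples are Fcgr1 (0.03), Cenpa (0.07), Dnajb1 (0.09), Irf8 (-0.11), Nfil3 (0.13) and Nusap1 (-0.155).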

Other observations

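A probe for D530039A21Rik, a RIKEN clone without a place in the gene table used here and chosen after its values were seen, was well above background in WT marrow alone after DMBA. Its log ratios were -4.57 and -4.34 in null-labelled marrow and -0.24, -0.15 and 0.18 in WT marrow after DMBA (-4.38 ± 0.15, limma's adjusted p = 0.00086). The probe was as low in null-labelled marrow after oil, at -4.29 and -4.56, while the 3 arrays of mice lacking both Cyp1a1 and Cyp1b1 read -1.09, -0.66 and -0.73 and the 6 arrays of Cyp1a1-null mice -0.32 to -0.01.

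Ribosomal protein genes differed in order between treatments. Their median log ratio was -0.20 and -0.20 in null-labelled marrow after DMBA, against 0.42 and 0.44 in null-labelled marrow after oil, and -0.07, -0.05 and -0.04 in WT marrow after DMBA. In the comparison of null-labelled with WT marrow after oil, without WT oil array 1, 39 of 68 were called higher and 9 lower by limma, with a median of 0.62. Of all 21933 genes, 4920 were called higher and 3045 lower there. The list's median difference after DMBA, -0.24, changed sign with the scaling, to 0.22 with Cy3 alone and 0.13 with median centring.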
